A study of Homo sapiens with 6 samples.

Results

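The core genes of the G1 phase of the cell cycle, 10 in all, were followed across the 6 libraries of the study. They were taken by name from a count table of 56505 rows and comprise the D-type cyclins CCND1, CCND2 and CCND3, the E-type cyclins CCNE1 and CCNE2, the cyclin-dependent kinases CDK2, CDK4 and CDK6, and RBL1 and RBL2, which encode the RB paralogs p107 and p130. All 10 have a row in the table, and 8 of them passed the filter on low counts and were tested. CCND2 and CDK2 did not pass and are described by their counts only. Per the labels the cells are MDA-MB-468, a basal-like line from a human breast cancer of the triple-negative class, kept in medium with serum and given no added treatment. The control hairpin (shControl) was present in 3 libraries, in the vector that the labels write as pLK0, and the other 3 (shCK5-22 in the labels, here shCK5) came from cells with a hairpin against KRT5, the gene of cytokeratin 5. One knockdown hairpin was used, so an effect of the lost keratin and an off-target effect of the hairpin cannot be told apart. The labels do not say that replicates came from separate cultures, and p-values then cover only library-to-library spread, which may be technical. In bulk RNA, fewer cells of a type and less RNA per cell cannot be told apart.

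D-type cyclins bind and activate CDK4 and CDK6 in response to growth signals, and E-type cyclins bind and activate CDK2 later in G1. Both kinases phosphorylate the pocket proteins RB, p107 and p130, which otherwise hold E2F transcription factors in check. p130 is best known from resting cells, where it is part of the DREAM repressor complex, whereas RBL1 is itself a known E2F target gene and p107 accumulates in cycling cells. MDA-MB-468 is known for a homozygous deletion that removes RB1, and in cells without RB the pocket protein activity that remains is that of p107 and p130. Breast cancers and lines without RB1 are known for low dependence on D-type cyclins and on CDK4 and CDK6.

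The libraries held 68810882 to 83594772 counts. Levels are CPM, the usual depth-scaled counts, computed on library sizes after TMM correction, and changes are log2 fold changes, shCK5 minus shControl. KRT5 itself fell from 2044 ± 23.3 to 16.4 ± 0.845 CPM (SD, n = 3 each). Of the markers of the labelled cell type, 6 of 8 basal epithelial genes and 5 of 5 general epithelial genes fell, with summed levels of 6292 to 6481 CPM against 1195 to 1227 CPM for the basal list and 4859 to 4960 CPM against 1347 to 1372 CPM for the epithelial list. RB1 lay between 1.84 and 2.08 CPM in shControl and between 98.9 and 103 CPM in shCK5, so the libraries labelled shCK5 go against the known deletion in this line. Different cells and an effect of the hairpin cannot be told apart in this design, and every difference given here carries that limit. Summed markers of leukocytes (6.32 to 7.41 CPM in shControl, 1.47 to 1.76 CPM in shCK5), endothelial cells (4.46 to 6.37 and 5.98 to 6.94 CPM) and fibroblasts (6.20 to 7.37 and 4.42 to 5.14 CPM) were low in both groups, but single markers moved strongly and in both directions. PDGFRB went from 0.476 ± 0.184 to 4.36 ± 0.301 CPM and PECAM1 from 2.21 ± 0.688 to 4.23 ± 0.434 CPM, while FAP went from 6.04 ± 0.624 to 0.253 ± 0.0977 CPM, CD14 from 5.02 ± 0.676 to 0.798 ± 0.217 CPM and CDH5 from 1.30 ± 0.158 to 0.0348 ± 0.0136 CPM. THY1 was at 0 in every library, CD3E and DCN had 2 counts each, and PTPRC had 158 counts in shControl and 14 in shCK5. The part of these markers in the results was not tested.

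The promoters of both RB paralogs and of both D-cyclin kinases are shown, because the first pair moved in opposite directions and the second moved in the same direction by unequal amounts. RefSeq promoter windows of 300 bases (250 before the gene's start site and 50 after it, GRCh38.p14) were used for 6 of the 10 genes. The windows below are chr20:37095948-37096247 on the minus strand for RBL1, chr16:53434221-53434520 on the plus strand for RBL2, chr12:57752261-57752560 on the minus strand for CDK4 and chr7:92836524-92836823 on the minus strand for CDK6, each written 5′ to 3′ along its gene. Capitals mark matches, on either strand, to an E2F motif (TTTCCCGC, TTTCGCGC, TTTGCCGC or TTTGGCGC), a CHR element of the kind bound by the DREAM complex (TTTGAA or TTCGAA), an E-box (CACGTG) or an AP-1 motif (TGANTCA). For RBL2 and CDK6, which have further windows in the table, the first listed is shown.
RBL1: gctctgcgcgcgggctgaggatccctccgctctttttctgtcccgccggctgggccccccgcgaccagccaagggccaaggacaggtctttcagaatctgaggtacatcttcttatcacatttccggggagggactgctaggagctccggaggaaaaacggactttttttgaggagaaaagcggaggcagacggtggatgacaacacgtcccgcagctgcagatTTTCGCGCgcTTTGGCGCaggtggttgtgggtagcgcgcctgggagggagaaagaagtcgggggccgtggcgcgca
RBL2: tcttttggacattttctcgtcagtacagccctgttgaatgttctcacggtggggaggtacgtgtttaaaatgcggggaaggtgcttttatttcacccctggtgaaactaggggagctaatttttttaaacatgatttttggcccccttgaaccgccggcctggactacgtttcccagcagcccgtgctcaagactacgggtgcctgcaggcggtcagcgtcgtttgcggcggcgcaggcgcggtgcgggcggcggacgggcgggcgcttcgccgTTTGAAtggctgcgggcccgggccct
CDK4: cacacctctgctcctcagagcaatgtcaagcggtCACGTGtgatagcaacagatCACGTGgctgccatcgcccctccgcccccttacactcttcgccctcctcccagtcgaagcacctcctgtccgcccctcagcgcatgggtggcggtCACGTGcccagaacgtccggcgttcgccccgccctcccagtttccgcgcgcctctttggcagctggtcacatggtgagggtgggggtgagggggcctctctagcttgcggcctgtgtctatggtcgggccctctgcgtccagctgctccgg
CDK6: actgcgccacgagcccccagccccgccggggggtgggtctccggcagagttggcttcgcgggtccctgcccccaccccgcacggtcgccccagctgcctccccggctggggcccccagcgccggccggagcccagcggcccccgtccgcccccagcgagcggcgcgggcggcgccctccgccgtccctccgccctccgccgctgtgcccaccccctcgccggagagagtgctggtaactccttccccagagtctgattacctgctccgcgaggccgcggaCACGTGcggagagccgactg

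The RBL1 window held 2 E2F matches, TTTCGCGC beginning at -26 and TTTGGCGC at -16 relative to the start site, counted as +1 with no position 0. An E2F match is found in 3.31% of all 35116 RefSeq promoter windows of this length. The RBL2 window held no E2F match and had 1 CHR match at +25, a motif present in 16.4% of windows. CDK4 had 3 E-boxes, at -216, -196 and -101, and CDK6 had 1 at +31. E-boxes occur in 7.26% of windows and AP-1 motifs in 7.71%, and none of the printed windows held an AP-1 match. No motif overlapped another. The windows of CCNE1 and CCND3 (3 for CCND3), and the second windows of RBL2 and CDK6, held no match to any of these motifs. CCND1, CCND2, CCNE2 and CDK2 had no window used here. A match is a description of letters and not a measured binding site.

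CCND1, CCND3, CDK4 and CDK6 rose together, RBL1 rose and RBL2 fell. CCNE1 fell by a small amount. Of the 8 tested members, 5 rose (CDK6, CCND3, RBL1, CCND1 and CDK4), 2 fell (RBL2 and CCNE1), and CCNE2 did not pass, in edgeR's quasi-likelihood test, Benjamini-Hochberg adjusted over 19567 genes, with a threshold of 0.05. Across all genes tested, 82.7% passed in either direction, 40.9% rose and 41.7% fell, so passing the test does not set these genes apart. Rises above 2-fold were found in 5 of the 8 tested members, against 19.6% of all genes tested. Falls above 2-fold were found in RBL2 alone, against 24.4% of all genes tested. The median log2 fold change was 1.48 over the 8 tested members and -0.02 over all tested genes. The members were chosen with earlier results of these data known, so these medians are a description only. Groups did not overlap in 7 of the 8, against 84.2% of all genes tested.

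**Figure D1:**
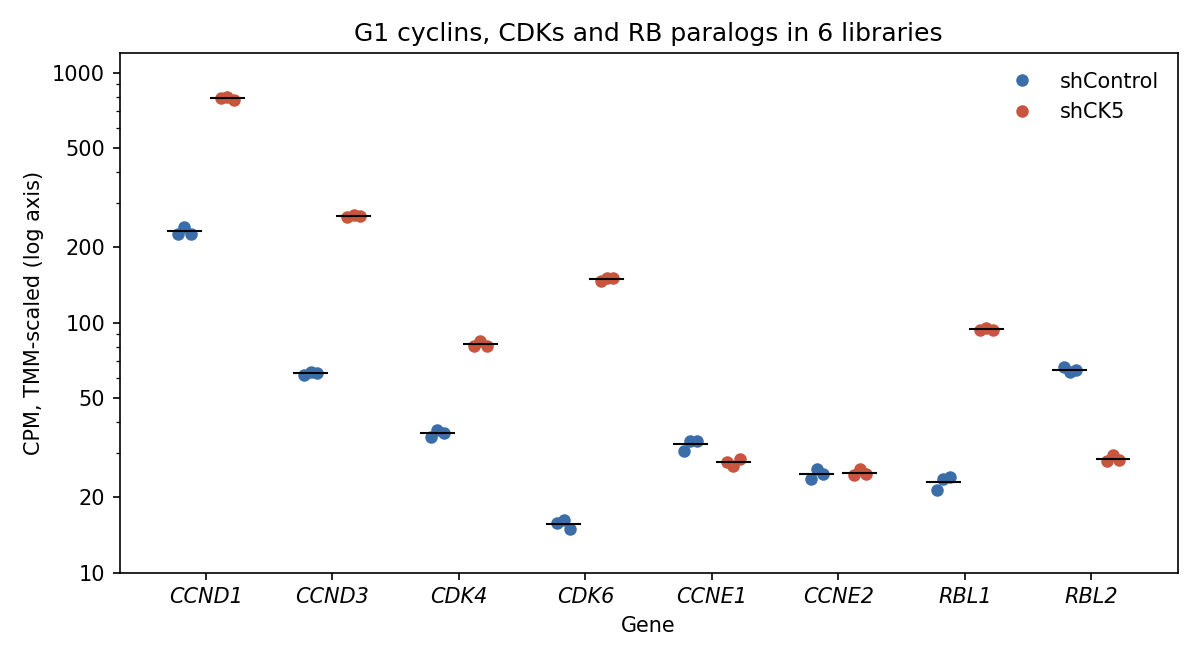
Level of each tested member in each library (CPM after TMM scaling, logarithmic axis). Points are libraries (3 shControl in blue, 3 shCK5 in red) and horizontal lines are group means; the groups are apart in every gene shown except CCNE2, and CDK6 has the widest gap, from 15.7 to 150 CPM.

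CCND1, which encodes cyclin D1, was the most abundant D-type cyclin. Its level was 226, 242 and 227 CPM in shControl replicates 1, 2 and 3, and 792, 801 and 776 CPM in the shCK5 replicates. All 3 shCK5 libraries lay far above all 3 shControl libraries. The log2 fold change was 1.77 (SE 0.0287, 3.41-fold, adjusted p = 7.89e-26 by edgeR). CCND1 (ENSG00000110092.3) lies on chromosome 11, 69641087 to 69654474, plus strand, in GENCODE 29 on GRCh38, and 10.3% of its exon bases also belong to exons of the convergent gene LTO1.

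CCND3, which encodes cyclin D3, rose slightly more. It had 62.0, 63.3 and 63.0 CPM in shControl and 265.7, 269.4 and 267.2 CPM in shCK5. Replicates lay close together, with SDs of 0.675 and 1.83 CPM. The log2 fold change was 2.09 (SE 0.0281, 4.26-fold, edgeR adjusted p = 1.63e-27). The gene (ENSG00000112576.12) spans 41934933 to 42050357 on chromosome 6, minus strand.

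CCND2, which encodes cyclin D2 and is often silenced by promoter methylation in breast cancer, was at the limit of detection in both groups. The shControl libraries held 4, 0 and 0 of its counts and the shCK5 libraries 2, 10 and 0, against 14191 and 60958 summed counts of CCND3. No difference was detectable at this depth. Without the filter on low counts, the log2 fold change was 1.49 with an SE of 1.43 (edgeR adjusted p = 0.369). In GENCODE 29, 13.8% of the exon bases of CCND2 (ENSG00000118971.7, chromosome 12, 4273772 to 4305350, plus strand) are shared with another gene model on the same strand.

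CDK6 had the largest change of any member. It had 15.8, 16.3 and 14.9 CPM in shControl and 147, 151 and 151 CPM in shCK5. Every shCK5 library lay far above every shControl library. The log2 fold change was 3.26 (95% interval 3.18 to 3.33, SE 0.0372, 9.55-fold, edgeR adjusted p = 6.68e-29), and 94.8% of all tested genes had a lower value. CDK6 (ENSG00000105810.9) lies on chromosome 7, 92604921 to 92836594, minus strand, and has the longest exon sequence of the members, 12.3 kb in union.

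CDK4, the other kinase partner of D-type cyclins, rose less. It stood at 34.8, 37.2 and 36.2 CPM in shControl and at 80.5, 84.4 and 80.7 CPM in shCK5, and the groups did not overlap. The change on the log2 scale was 1.18 (SE 0.0364, 2.27-fold, edgeR adjusted p = 5.06e-20). In GENCODE 29, 43.2% of the exon bases of CDK4 (ENSG00000135446.16, chromosome 12, 57747727 to 57756013, minus strand) lie in exons of TSPAN31 on the opposite strand. TSPAN31 had 955 counts in shControl and 1227 in shCK5, against 8156 and 18670 for CDK4. Whether reads were counted by strand is not known from these sources, and reads in the shared stretch cannot be assigned to 1 of these genes.

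CDK2, the partner of E-type cyclins, was listed at 0 in all 6 libraries. In GENCODE 29 its exons (ENSG00000123374.10, chromosome 12, 55966769 to 55972784, plus strand) share 16.8% of their bases with other genes, 89 of them with PMEL. PMEL had 221 counts in shControl and 132 in shCK5. In all, 27600 rows of the table had no count in any library, and the row of CDK2 was not read as lack of expression. Among the other cell cycle genes listed at 0 throughout were CDKN2A, CDKN2B, E2F8 and LIN37.

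CCNE1, which encodes cyclin E1, fell by a small amount. The shControl libraries gave 30.6, 33.5 and 33.6 CPM and the shCK5 libraries 27.6, 26.8 and 28.6 CPM, and the groups did not overlap, with 30.6 CPM as the lowest shControl and 28.6 CPM as the highest shCK5 level. The log2 fold change was -0.24 (95% interval -0.33 to -0.14, SE 0.0465, edgeR adjusted p = 5.36e-05). Only 16.2% of tested genes had a smaller absolute change. CCNE1 (ENSG00000105173.13) lies on chromosome 19, 29811898 to 29824308, plus strand, and shares no exon base with another gene in that annotation.

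CCNE2, which encodes cyclin E2, had 23.6, 26.0 and 24.9 CPM in shControl and 24.5, 26.0 and 24.8 CPM in shCK5. The groups overlapped throughout, and the log2 fold change was 0.02 (SE 0.0489, edgeR adjusted p = 0.779). The 95% interval of the fold, 0.942 to 1.08, does not reach the change seen in any of the 5 members that rose. With libraries scaled by their total counts alone the value became -0.12 (edgeR adjusted p = 0.0283), a setting that moved the median of all tested genes from -0.02 to -0.16. Of its exon bases, 37.1% lie in exons of the opposite-strand gene INTS8, which had 11733 and 8657 counts, above the 5620 and 5723 of CCNE2. CCNE2 is ENSG00000175305.17 on chromosome 8.

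RBL1, which encodes p107, rose in shCK5. It had 21.4, 23.7 and 24.1 CPM in shControl and 93.1, 95.3 and 93.8 CPM in shCK5, with no overlap. The log2 fold change was 2.03 (SE 0.0404, 4.07-fold, edgeR adjusted p = 5.62e-24). RBL1 (ENSG00000080839.11) lies on chromosome 20, 36996349 to 37095995, minus strand, and 3.54% of its exon bases are shared, all on the opposite strand.

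RBL2 went the other way. Its shControl libraries stood at 66.3, 63.3 and 64.7 CPM and its shCK5 libraries at 27.9, 29.7 and 28.3 CPM, again without overlap, and the level was 2.26-fold lower (log2 fold change -1.18, SE 0.0385, edgeR adjusted p = 1.76e-19). RBL2 (ENSG00000103479.15, chromosome 16, 53433977 to 53491649, plus strand) shares 18.2% of its exon bases with genes on the opposite strand, 8.33% with the convergent gene AKTIP. AKTIP, picked out once its values were known, also fell, from 39.4 ± 1.15 to 14.0 ± 0.667 CPM (edgeR adjusted p = 1.72e-19). Its part in the counts of RBL2 was not tested.

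**Figure D2:**
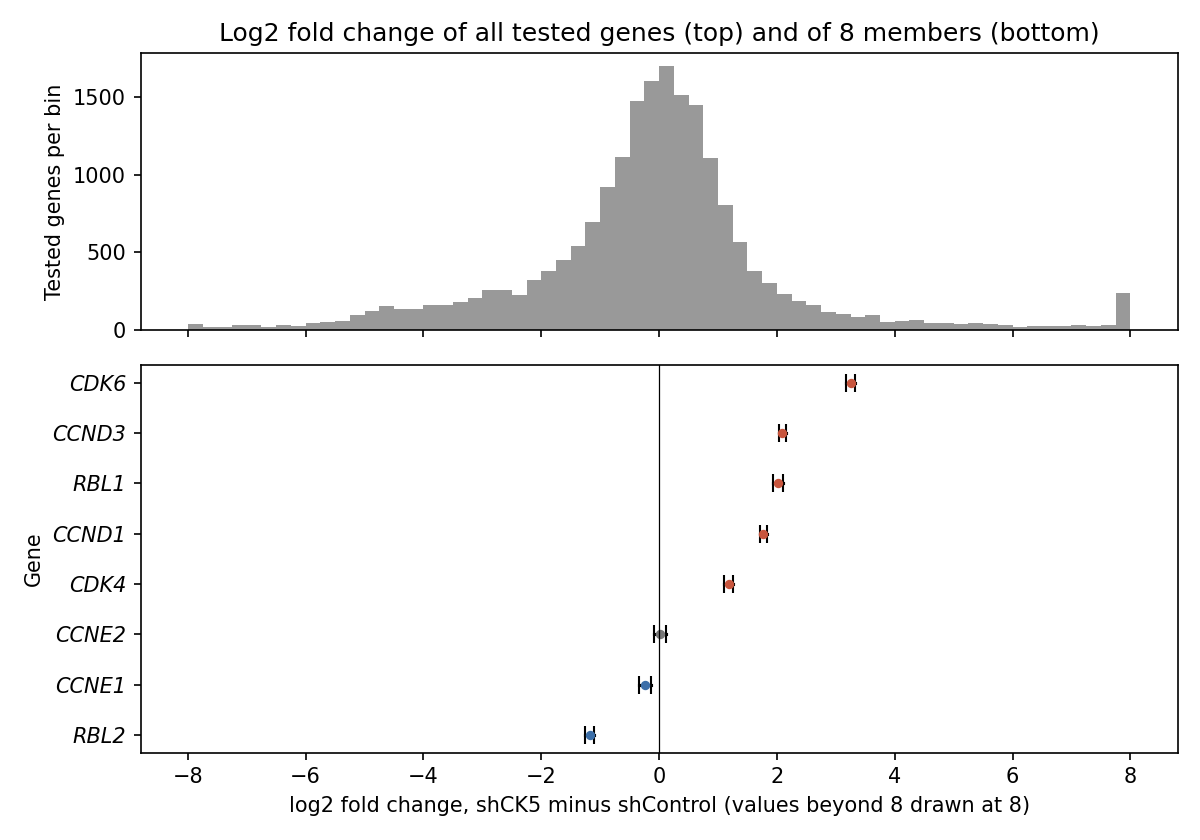
Upper panel: histogram of log2 fold changes (shCK5 minus shControl) of all 19567 tested genes, with values beyond 8 drawn at 8. Lower panel: the 8 tested members with 95% intervals of the edgeR fit (red higher, blue lower, grey not passed); they run from -1.18 for RBL2 to 3.26 for CDK6, and only the interval of CCNE2 spans 0.

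Levels of different genes were compared per kilobase of exon, as the union of exons in GENCODE 29. In shControl the order was CCND1 (48.0 ± 1.81 CPM per kb), CCNE1 (12.8 ± 0.669), CDK4 (11.4 ± 0.376), CCND3 (10.8 ± 0.116), RBL2 (8.85 ± 0.208), CCNE2 (5.65 ± 0.276), RBL1 (3.88 ± 0.243) and CDK6 (1.28 ± 0.0569). In shCK5 it was CCND1 (163.6 ± 2.63 CPM per kb), CCND3 (46.1 ± 0.315), CDK4 (25.9 ± 0.697), RBL1 (15.8 ± 0.191), CDK6 (12.2 ± 0.177), CCNE1 (10.8 ± 0.355), CCNE2 (5.71 ± 0.186) and RBL2 (3.91 ± 0.128). Errors are SDs over 3 libraries. No 2 neighbours in either order overlapped over the libraries, although CDK4 and CCND3 in shControl were as close as 10.99 and 10.91 CPM per kb. RBL2 went from the fifth to the last of the 8, and CDK6 from the last to the fifth. Where the longest transcript was used in place of the union, CCND3 was second in shControl at 26.2 CPM per kb, and CCNE1 stood above CDK6 in shCK5 at 13.5 against 12.9 CPM per kb. The table does not resolve isoforms.

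Within families, the ratio of 2 paralogs in 1 library does not depend on how libraries are scaled. The per-kb ratio of RBL1 to RBL2 was 0.398, 0.461 and 0.458 in shControl and 4.10, 3.95 and 4.08 in shCK5, a 9.24-fold difference. RBL2 was thus the higher of the pair in every shControl library and RBL1 in every shCK5 library. The CDK6 to CDK4 ratio was 0.117, 0.113 and 0.106 in shControl and 0.472, 0.462 and 0.483 in shCK5, 4.21-fold apart, with CDK4 the higher in all 6 libraries.

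The D-type and E-type pairs kept their order. The CCND1 to CCND3 ratio went from between 4.33 and 4.59 to between 3.49 and 3.58, and the CCNE1 to CCNE2 ratio from between 2.22 and 2.33 to between 1.77 and 1.99. Groups did not overlap in any of the 4 ratios, and a two-sided exact permutation test of each log2 ratio gave p = 0.1 (0.1 after Benjamini-Hochberg adjustment over the 4), the smallest value that 3 libraries against 3 can give. A ratio to CCND2 was not formed, since 3 of its counts are 0.

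Summed over paralogs, D-type cyclins stood at 58.8 ± 1.89 CPM per kb in shControl and 209.7 ± 2.79 in shCK5, 3.56-fold more, and CDK4 and CDK6 together at 12.7 ± 0.396 and 38.1 ± 0.804, 3.01-fold more. E-type cyclins summed to 18.4 ± 0.918 and 16.5 ± 0.256 CPM per kb. The summed level of D-type cyclins exceeded that of E-type cyclins in every library. CDK6 made up 10.1% ± 0.437 of the CDK4 and CDK6 sum in shControl and 32.1% ± 0.496 in shCK5. With RB1 included, RBL2 accounted for 67.9% ± 1.66 of the RB family in shControl, RBL1 for 29.8% ± 1.74 and RB1 for 2.37% ± 0.183. In shCK5 these shares were 11.1% ± 0.358, 44.7% ± 0.562 and 44.3% ± 0.911, and the family sum went from 13.04 ± 0.125 to 35.4 ± 0.112 CPM per kb. All these sums and shares use the union of exons and depend on that choice. By the longest transcript, RB1 stood above RBL1 in shCK5, at 21.1 against 16.5 CPM per kb.

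**Figure D3:**
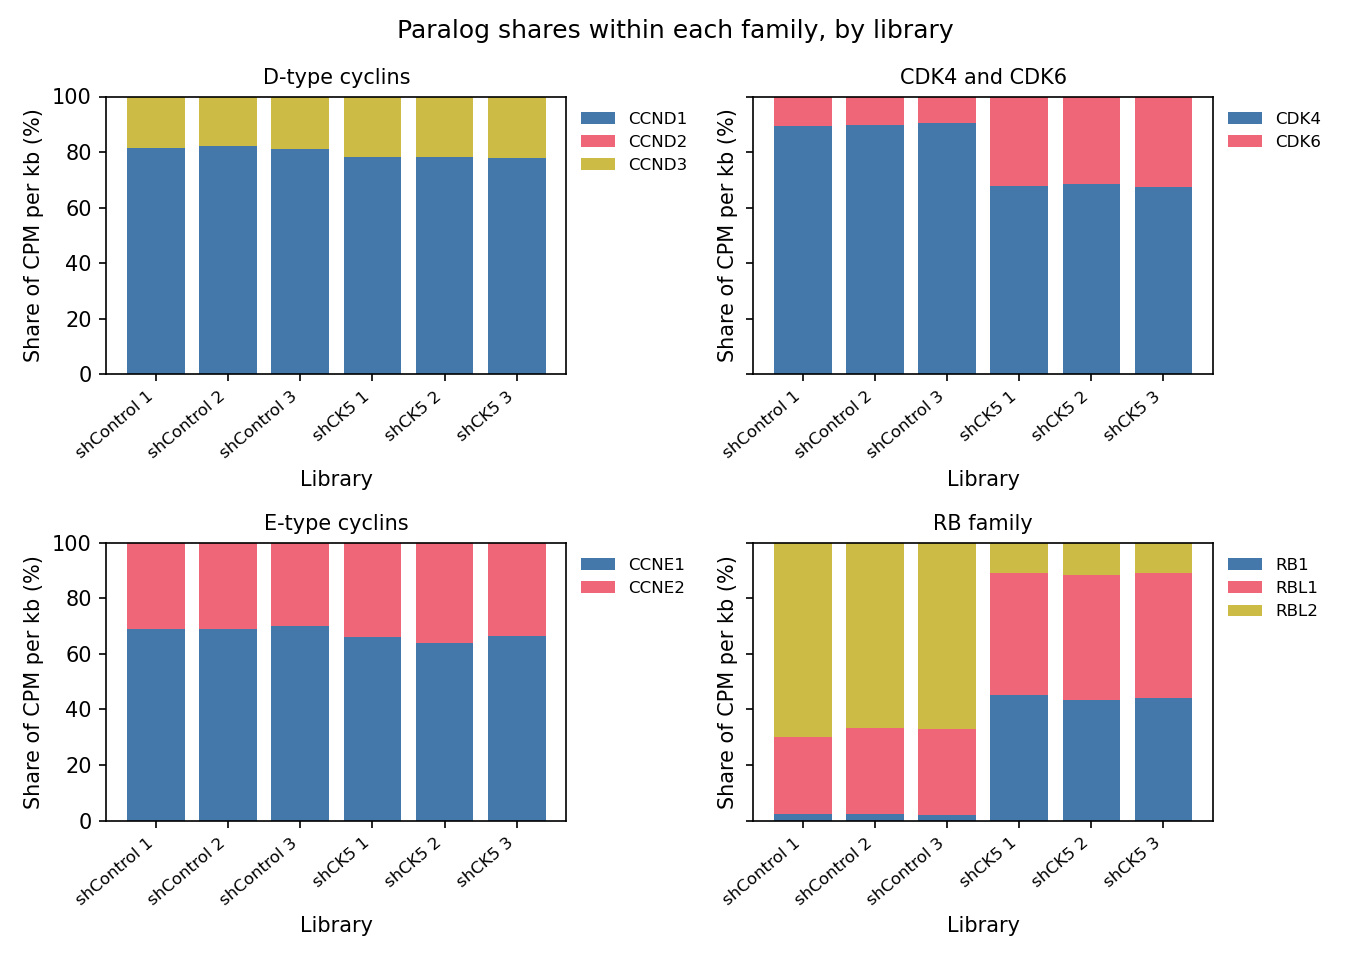
Share of each paralog in the summed CPM per kb of its family, for each library (stacked bars, 0 to 100%). Lengths are the union of exons, and shares depend on that choice. CCND2, below 0.02% of its family, cannot be seen. RBL2 takes 67.9% of the RB family in shControl and 11.1% in shCK5 on average, and CDK6 goes from 10.1% to 32.1% of its pair, while CCND1 holds 81.6% and 78.0% of the D-type sum.

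The members were set beside 54 other genes of the G1/S pathway in 6 lists by role. Of the 50 that were tested, 33 rose, 14 fell and 3 did not pass, with a median log2 fold change of 0.36, against 40.9% and 41.7% of all tested genes rising and falling. All 5 tested CDK inhibitor genes of 7 rose, and 4 did where libraries were scaled by total counts alone (CDKN1A, the gene of p21, then had a log2 fold change of 0.08 and an edgeR adjusted p of 0.0641). CDKN2C, which encodes p18, an INK4 inhibitor of CDK4 and CDK6, rose from 20.6 ± 0.840 to 57.0 ± 2.57 CPM (log2 fold change 1.47, edgeR adjusted p = 3.2e-20). CDKN1C, the gene of p57, rose from 3.87 ± 0.337 to 7.53 ± 0.775 CPM and CDKN2D, the gene of p19, from 34.9 ± 0.876 to 53.2 ± 1.49 CPM. CDKN2A and CDKN2B, the genes of p16 and p15, were the pair listed at 0.

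E2F and DP factors rose in 4 of 9 tested genes of 10 and fell in 4. Among all tested genes, 40.9% rose and 41.7% fell. Scaling by total counts alone turned E2F3, at 0.11, to -0.02 (edgeR adjusted p = 0.483). Among genes with at least 100 counts in 3 libraries, E2F3 did not pass either (0.051, edgeR adjusted p = 0.12). E2F7, an atypical E2F that represses transcription, rose from 14.9 ± 1.13 to 99.6 ± 1.08 CPM and E2F4, the usual partner of p107 and p130, from 45.4 ± 0.755 to 109 ± 0.662 CPM (log2 fold change 1.27). E2F1, an activator held by RB, rose from 58.0 ± 2.04 to 199.5 ± 3.07 CPM. MuvB subunits, shared by the DREAM and B-MYB complexes, and MYBL2, the gene of B-MYB, rose in 2 of 5 tested genes of 6 and fell in 2. MYBL2 fell from 337 ± 5.67 to 134 ± 5.21 CPM and RBBP4, a histone-binding subunit, from 210 ± 5.78 to 123 ± 0.326 CPM, whereas LIN54, the subunit that binds the CHR element, rose by 0.70 on the log2 scale.

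Among 11 genes of CDK activation and cyclin turnover, 7 rose and 4 fell, against 40.9% and 41.7% of all tested genes. CDC37, a kinase co-chaperone that loads CDK4 and CDK6 onto HSP90, fell from 825 ± 8.13 to 375 ± 9.94 CPM (log2 fold change -1.14, edgeR adjusted p = 1.17e-22), opposite in direction to both kinases. CDC25A, a phosphatase that activates CDK2, rose by 0.91 and CDK7, the CDK-activating kinase, by 0.80 on the log2 scale. The calls of WEE1 (-0.12) and FBXW7 (-0.14), which encode an inhibitory kinase of CDKs and the ligase subunit that recognises cyclin E (picked out once their values were known), were lost when certain single libraries were left out: WEE1 without shCK5 replicate 2 or 3 (edgeR adjusted p = 0.0536 and 0.0562), FBXW7 without any 1 library other than shControl replicate 3 (0.0507 to 0.0757). FBXW7 also lost its call without the filter on low counts (edgeR adjusted p = 0.0627).

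Of 16 G1/S target genes of E2F, 11 rose, 4 fell and 1 did not pass, with a median log2 fold change of 0.44. The shares of all tested genes, for this list and the next, were 40.9% rising and 41.7% falling. MCM10, a replication initiation factor, rose by 1.22 and RRM1, a ribonucleotide reductase subunit, by 1.19, while TYMS, which encodes thymidylate synthase, fell from 148 ± 4.76 to 62.0 ± 1.61 CPM. All 4 cyclin and kinase genes of S phase and mitosis rose by less than 2-fold, and 3 did under that scaling by total counts, where CCNB2 did not pass. CCNB1 rose from 129 ± 2.40 to 237 ± 4.03 CPM, CCNA2 from 72.9 ± 0.803 to 94.4 ± 0.938 CPM and CDK1 from 101.0 ± 3.53 to 129 ± 2.85 CPM. The absolute log2 fold changes of 6 members (CDK6, CCND3, RBL1, CCND1, CDK4 and RBL2) were larger than that of any gene in this S phase and mitosis list. Changes of similar size were found in other lists, among them E2F7 (2.74), E2F1 (1.78), CDKN2C (1.47) and MYBL2 (-1.33).

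**Figure D4:**
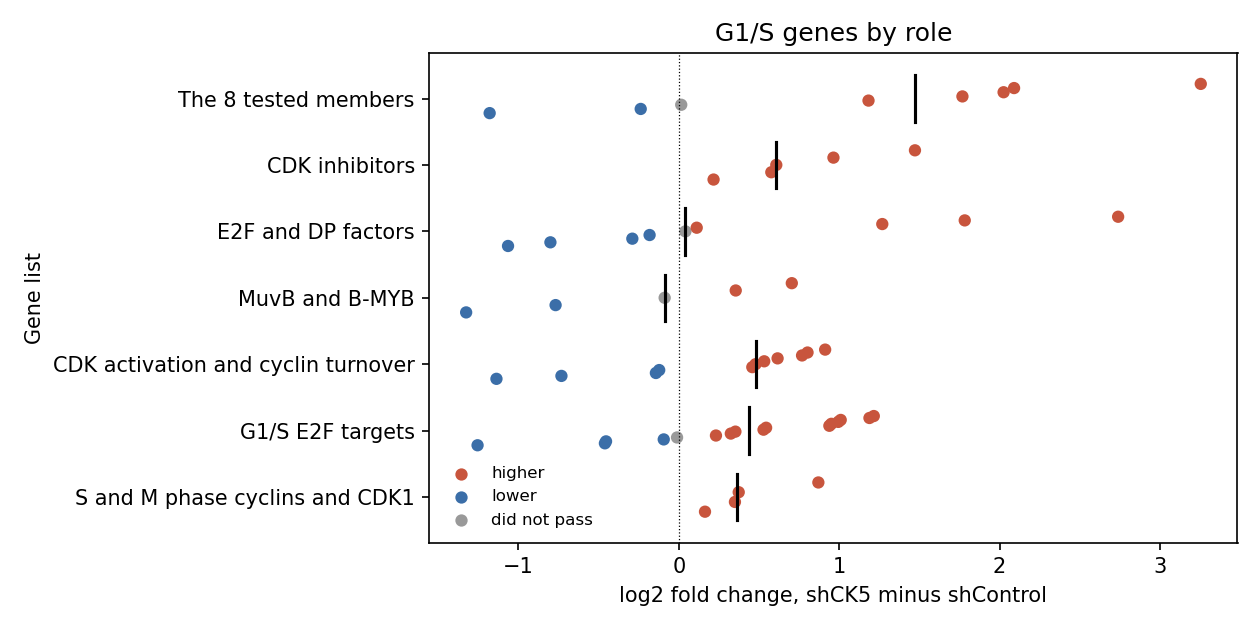
Log2 fold change (shCK5 minus shControl) of each tested gene in the member list and in the 6 lists of the G1/S pathway; dots are genes (red higher, blue lower, grey not passed) and black bars are list medians. The member median of 1.48 lies to the right of the medians of the other lists, which run from -0.09 for MuvB and B-MYB to 0.61 for CDK inhibitors. Members and lists were chosen with earlier results of these data known.

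Among the 3 genes whose log2 CPM followed CDK6 most closely over the 6 libraries were SLC37A2 and UQCC1, with Pearson's r of 0.999982 and 0.999954. Since 2 groups of 3 libraries set these values, 4090 genes (20.9% of those tested) had r above 0.99, and the ranking is given as a description. SLC37A2, a sugar phosphate transporter gene, went from 0.855 ± 0.1002 to 63.4 ± 2.66 CPM, and UQCC1, an assembly factor gene of respiratory complex III, from 14.5 ± 0.466 to 89.1 ± 1.58 CPM.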

How the data were processed

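RNA sequencing libraries of cells labelled MDA-MB-468 were grouped by sample title. The authors deposited raw read counts per gene name, without normalization. Build GRCh38 and the tools STAR, cutadapt, Cufflinks and SAMtools are listed in the submitters' processing notes, with no version of any tool; the counting program, strand setting and annotation were not given in the sources. Of counts above 20, 63.1% to 65.0% were even numbers. Mitochondrially encoded genes took 10.3% to 10.7% of counts in shControl and 7.84% to 8.72% in shCK5.

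Genes with low counts were removed (filterByExpr, edgeR 4.0.16, R 4.3.3) and libraries scaled by TMM (1.04 to 1.06 in shControl, 0.95 to 0.959 in shCK5) and compared with glmQLFit and glmQLFTest, without covariates, adjusted over all 19567 genes tested; standard errors are the log2 fold change divided by the square root of F. Symbols matched GENCODE 29 for lengths and overlaps, which need not be the authors' annotation. In each list, genes named are the 3 with the largest change among those that passed; of the 3 genes most like CDK6, 1 is not reported here. The members and lists were chosen with earlier results of these data known. Chi-square per degree of freedom between replicates was at least 4.04; counting both mates of a fragment would raise this value, which was not tested. Alternatives were DESeq2 1.42.0, other scalings and filters, a replicate block and leaving out each library.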

Additional observations from a re-analysis of the deposited data

How the results depend on the processing

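Of the 8 tested members, 7 kept their direction and their call under all 13 alternatives. The log2 fold change of CDK6 ranged from 3.12 to 3.29, of CCND3 from 1.95 to 2.11, of RBL1 from 1.89 to 2.06, of CCND1 from 1.63 to 1.80, of CDK4 from 1.05 to 1.21, of RBL2 from -1.32 to -1.15 and of CCNE1 from -0.37 to -0.20. CCNE2 changed sign, to -0.12 with library size alone (where it passed) and to -0.046 among genes with at least 100 counts in 3 libraries, and ranged from -0.0181 (without shControl replicate 1) to 0.0515 when single libraries were left out; it was -0.000537 without shCK5 replicate 2. The cause was not tested. With library size alone, 4 CDK inhibitors, 3 E2F and DP factors and 3 S and M phase genes rose. In that setting 3 MuvB and B-MYB genes and 5 G1/S targets fell. LIN52 (-0.22, edgeR adjusted p = 0.00334) and ORC1 (-0.15, edgeR adjusted p = 0.0097) then passed. Among genes with at least 100 counts in 3 libraries, 3 E2F and DP factors rose and 3 MuvB and B-MYB genes fell, LIN52 among them (edgeR adjusted p = 0.0422). Without the filter on low counts, 3 genes of CDK activation and cyclin turnover fell. Leaving out single libraries took the lower genes of CDK activation and cyclin turnover from 4 to between 2 and 4. With the replicate number as a block, 5 members rose and 2 fell, as without it, and 7918 genes rose and 8008 fell among all tested; log2 expression deviations of same-numbered libraries correlated with r of 5.75e-05, -0.0105 and -0.00452, no library correlated best with its own number, and the numbers were not used as pairs. The 4 paralog ratios kept their direction without any single library. Levels per kb of 7 members moved by more than 1 SD when the longest transcript was used. At this depth CCND2 allows no comparison. The ratio of CCND2 to CCND1 was not run.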
